A study of Mus musculus and Homo sapiens with 9 samples.

Results

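The jointly gained sites were 838 S9.6 CUT&Tag peaks of Mcm8 KO mouse embryonic fibroblasts (MEFs), 8.72% of the 9605 peaks called in that library, out of 102544 peaks in the lists of all 9 libraries of the series. They were chosen by the presence and absence of called peaks: each overlapped no peak of Mcm8 WT MEFs and shared at least 1 bp with a peak of shDdx5 MEFs that itself overlapped no peak of shControl MEFs. The set held 838 KO peaks and 838 shDdx5 peaks. A site is called gained only in the sense that a peak was called in 1 library and not in its partner. Strength and overlap of the members are therefore given below as a description, while their position, sequence and values in other libraries were not used to choose them.

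The study compared R-loop maps of MEFs lacking Mcm8, a helicase of the minichromosome maintenance family, with maps of MEFs depleted of the RNA helicase Ddx5. The Mcm8 wildtype and Mcm8 knockout MEFs came from embryos at E13.5 and were immortalised with SV40 large T antigen. The shDdx5 and shControl MEFs are named as in their labels. In the study's methods Ddx5 was lowered with an adenoviral short hairpin RNA, and shControl was taken to be a control hairpin. Inside the deposited lists, however, peak names begin with shD1 in the shControl list and with shD2 in the shDdx5 list. What these prefixes stand for was not stated, so the identity of both libraries, on which the choice of all members rests, is taken from the labels alone. A MEF library of wildtype genotype made with no primary antibody, and HEK293 libraries made with mouse IgG, with anti-FLAG after transfection of FLAG-MCM8, with S9.6, and with S9.6 after transfection of an RNH1 plasmid, served as further readouts. Each group was a single library, so no test between conditions was possible, and every interval below is a 95% interval that covers counting error only. A peak list holds no expression values, so the loss of Mcm8 and the knockdown of Ddx5 were not checked here.

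R-loops form when nascent RNA pairs again with its DNA template and leaves the other strand single. They are known to collect near the starts of transcribed genes, above all at CpG-rich promoters, and helicases such as DDX5 and nucleases such as RNase H1 remove them. S9.6 is an antibody against the RNA-DNA hybrid, and in CUT&Tag it directs a transposase that tags the DNA nearby.

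The sequences below show the kinds of place that the set held. Each is the longest run within the overlap of the KO and the shDdx5 peak that lies outside annotated untranslated regions, cut to the 260 bases nearest the KO summit where it was longer, on the plus strand of mm10, with CpG dinucleotides in capitals. The first 5 are from KO peaks with their midpoint within 1 kb of a transcription start site (TSS) and with many CpGs. Zswim8 is such a peak with few CpGs. The Armc10 stretch begins 50 bp after its TSS. The Zswim8 stretch spans an annotated TSS (position 20721611, plus strand) and holds the shDdx5 summit, which lies in a coding exon before that TSS. Coding sequence is thus annotated upstream of the start that placed Zswim8 among the peaks near a TSS. The last 2 have their midpoint over 1 kb from any TSS, at 5276 bp for the intergenic peak and 1229 bp for Cuedc1.
Armc10 (chr5:21646103-21646249): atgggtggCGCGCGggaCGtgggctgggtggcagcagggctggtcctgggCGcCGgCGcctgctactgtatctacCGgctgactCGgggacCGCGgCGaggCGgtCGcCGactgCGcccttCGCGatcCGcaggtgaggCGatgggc
Osbp (chr19:11965410-11965669): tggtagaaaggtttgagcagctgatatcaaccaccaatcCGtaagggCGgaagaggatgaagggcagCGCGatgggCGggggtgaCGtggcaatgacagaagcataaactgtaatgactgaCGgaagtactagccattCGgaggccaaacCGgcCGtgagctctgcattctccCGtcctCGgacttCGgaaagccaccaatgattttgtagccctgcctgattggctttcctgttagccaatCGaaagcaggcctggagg
Paip2b (chr6:83831742-83832001): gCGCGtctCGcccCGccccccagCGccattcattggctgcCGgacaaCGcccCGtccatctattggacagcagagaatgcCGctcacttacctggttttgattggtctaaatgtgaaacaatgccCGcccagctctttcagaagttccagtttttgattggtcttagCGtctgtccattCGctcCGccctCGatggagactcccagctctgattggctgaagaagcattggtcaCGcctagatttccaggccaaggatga
Prkcsh (chr9:22002692-22002805): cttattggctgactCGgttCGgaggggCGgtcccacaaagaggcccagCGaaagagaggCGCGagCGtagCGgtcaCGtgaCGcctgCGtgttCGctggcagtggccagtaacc
Cdk4 (chr10:127063311-127063533): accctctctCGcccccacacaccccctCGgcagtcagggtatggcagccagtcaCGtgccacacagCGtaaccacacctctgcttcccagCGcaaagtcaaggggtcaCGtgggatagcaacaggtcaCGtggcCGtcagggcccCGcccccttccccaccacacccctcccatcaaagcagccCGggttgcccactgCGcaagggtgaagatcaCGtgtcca
Zswim8 (chr14:20721495-20721704): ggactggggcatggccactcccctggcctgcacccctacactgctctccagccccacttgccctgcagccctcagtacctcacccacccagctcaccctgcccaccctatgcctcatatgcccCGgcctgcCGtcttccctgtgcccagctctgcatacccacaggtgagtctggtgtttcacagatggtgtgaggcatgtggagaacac
Intergenic (chr16:31598504-31598763): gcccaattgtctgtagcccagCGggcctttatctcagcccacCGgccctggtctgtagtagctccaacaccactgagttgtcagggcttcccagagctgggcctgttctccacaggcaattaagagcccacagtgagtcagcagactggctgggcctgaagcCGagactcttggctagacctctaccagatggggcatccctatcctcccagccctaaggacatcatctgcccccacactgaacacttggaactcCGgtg
Cuedc1 intron (chr11:88180905-88181164): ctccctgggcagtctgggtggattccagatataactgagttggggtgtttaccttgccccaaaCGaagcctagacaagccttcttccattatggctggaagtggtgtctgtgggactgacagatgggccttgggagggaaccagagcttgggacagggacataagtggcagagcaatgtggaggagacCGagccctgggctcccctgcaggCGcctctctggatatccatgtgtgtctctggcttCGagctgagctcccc

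The Armc10 stretch held 20 CpGs in 147 bases and the Zswim8 stretch 2 in 210 bases. The Paip2b stretch held 6 copies of CCAAT or its complement and 3 of GGGCGG or its complement, and the Osbp stretch held 4 and 2. In Cdk4 the letters CACGTG occurred 4 times. The intergenic and the Cuedc1 stretches held 4 CpGs each. Of the 7 motifs searched, the Armc10, Zswim8 and Cuedc1 stretches held none and the intergenic stretch a single CCAAT.

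The strongest member by the weaker of its 2 −log10 q values had its KO summit between the starts of Armc10, which encodes a mitochondrial armadillo-repeat protein, and Fbxl13, which encodes an F-box protein. The start sites are 448 bp apart on opposite strands. The KO peak (chr5:21645784-21646249) had a fold enrichment over the local background of 7.35 and a −log10 q of 10.4, and the shDdx5 peak (chr5:21645741-21646352) had 7.82 and 14.3. The pileup at the Armc10 summit, recovered from the fold and the p-value, was 22 fragments in KO and 28 in shDdx5. Osbp, which encodes the oxysterol-binding protein, came second with folds of 5.80 and 6.12 and pileups of 20 and 26 in KO and shDdx5. Its KO and shDdx5 summits both lay upstream of the TSS (chromosome 19, position 11965941, plus strand), outside annotated transcripts.

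Further down the 15 strongest members stood Vps8, a subunit of an endosomal tethering complex, with folds of 5.37 in KO and 5.83 in shDdx5, and Paip2b, an inhibitor of poly(A)-binding protein, with 6.28 and 5.08. Zdhhc5, a palmitoyltransferase, had 5.66 and 5.95. Prdx1, a peroxiredoxin that breaks down peroxides, had 5.58 and 4.99, with both summits in an intron. Zswim8, a substrate adaptor of an E3 ubiquitin ligase, had 5.64 and 4.48. At Zswim8 the shDdx5 summit lay in a coding exon and the KO summit in an intron. These folds belong to single peaks within their own library, so the KO and shDdx5 values of a gene stand side by side and were not compared.

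Rnf122, a RING-type E3 ligase, had folds of 5.42 in KO and 6.35 in shDdx5, and its summits coincided to the base. Wrb, a receptor for tail-anchored membrane proteins, had 5.01 and 4.95. Ociad1 had 6.02 and 5.29. Prkcsh, the beta subunit of glucosidase II, had 6.26 and 4.65 at a start that faces that of Ccdc151 at a distance of 172 bp. Zfp948, Reep6 and Wbp1l closed the list, with folds between 4.21 and 5.51 in KO and between 4.06 and 5.91 in shDdx5. Of the 15, 14 lay within 1 kb of a TSS. The exception was an intergenic site on chromosome 8 (KO peak chr8:128165083-128165382, fold 5.37, shDdx5 fold 4.86) at 112992 bp from the nearest TSS.

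Most members were weak peaks. The KO pileup at the summit ranged from 6 to 23 fragments with a median of 10, and the shDdx5 pileup from 7 to 29 with a median of 12. Fold enrichment had a median of 3.73 in KO (range 2.33 to 7.35) and 3.80 in shDdx5 (range 2.43 to 7.83). The q-value was at most 0.05 for 459 members in KO, for 646 in shDdx5, for 369 in both and for 102 in neither. In 81 members the KO pileup was 7 or lower, which is the lowest pileup of any called WT peak. The relative depth recovered from the lists was 0.883 for KO over WT and 1.03 for shDdx5 over shControl, so KO was the shallower library of its pair. Whether depth had a part in the membership was not tested.

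**Figure D1:**
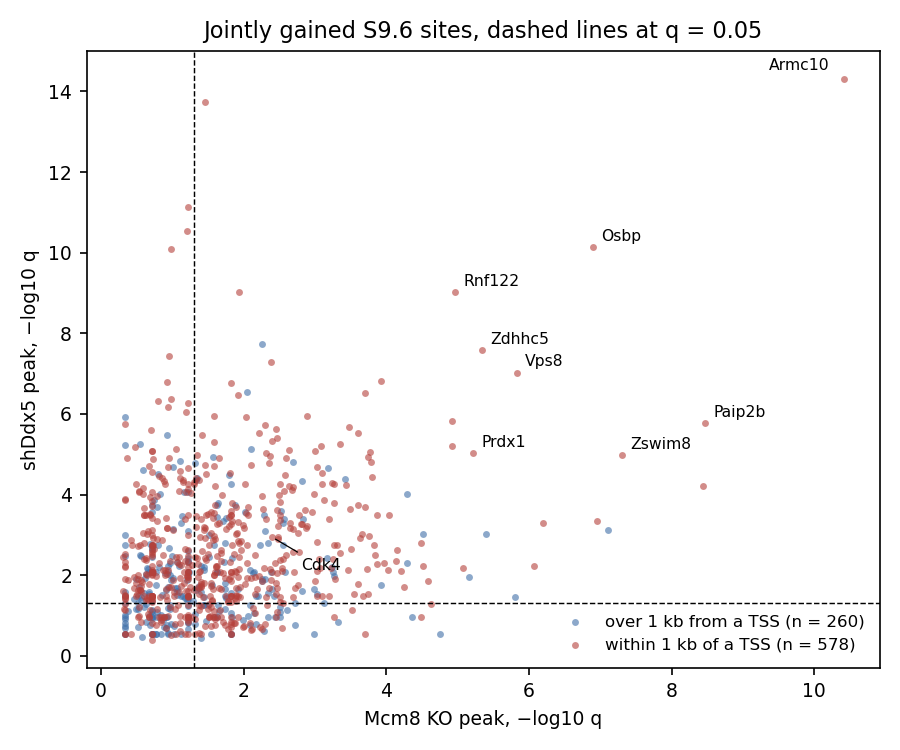
Each point is 1 of the 838 jointly gained sites, with the −log10 q of its KO peak on the x axis and of its shDdx5 peak on the y axis. Red points lie within 1 kb of a TSS (n = 578) and blue points further away (n = 260). The dashed lines mark q = 0.05, which 369 sites passed in both lists, and Armc10 stands at the upper right with 10.4 and 14.3.

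The 2 peaks of a member usually covered the same stretch. The median overlap was 257 bp, which was 89.4% of the shorter peak at the median, and in 678 members at least 50% of the shorter peak was shared. The KO and shDdx5 summits lay a median of 139 bp apart, with quartiles of 48 and 246 bp. Both distal and promoter members showed this, with median summit gaps of 144 and 137 bp. Overlap was required by the rule, and pairs formed from other lists are given beside it. WT peaks without a KO peak, paired with shDdx5-only peaks, shared a median of 254 bp (87.1% of the shorter), with summits 152 bp apart. KO-only peaks paired with shControl-only peaks shared a median of 221 bp (80.6%), with summits 130 bp apart. At the edge of the rule stood a site in an intron of Sgms1, a sphingomyelin synthase, with an overlap of 1 bp, and one at the promoter of Cdk17 with 4 bp. Just outside it, an intergenic KO-only peak on chromosome 13 and one in Ltbp1 each had a gap of 1 bp to a shDdx5-only peak. In all, 50 members shared under 50 bp, and 150 KO-only peaks missed the rule although a shDdx5-only peak lay within 500 bp.

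How large the set is was read beside the other corners of the same comparison. The 838 members are 10.4% of 8021 KO-only peaks (9.80 to 11.1%) and 8.92% of 9395 shDdx5-only peaks. Of 4893 WT-only peaks, that is WT peaks without a KO peak, 461 overlapped a shDdx5-only peak (9.42%, 8.63 to 10.3%). The KO-only share was 1.03 percentage points above the WT-only share, with an interval from -0.045 to 2.07 that includes 0. With the 6481 strongest peaks of each list, chosen by −log10 p, the shares were 11.0 and 8.13% and the difference 2.84 points (1.69 to 3.99). With every list cut to peaks of q 0.05 or lower they were 23.2 and 21.8%, a difference of 1.39 points (-1.47 to 4.15). A shControl-only peak was met by 4.28% of the KO-only list (3.85 to 4.74%) and by 4.93% of the WT-only list (4.35 to 5.57%). These shares describe single libraries and were not tested between them. The shDdx5 list also had wider peaks than the shControl list, with a median of 358 against 292 bp, and more of them at promoters, 43.0 against 27.2%.

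The members differed from the remaining KO-only peaks in position, and also in strength and base composition. Peaks whose midpoint was 1 kb or less from an annotated TSS were counted as promoter peaks. Of the 838 members, 578 were at a promoter (69.0%, 65.8 to 72.0%), against 1724 of the 7183 other KO-only peaks (24.0%). The difference was 45.0 percentage points (41.6 to 48.2). Seen from the other side, 25.1% of KO-only promoter peaks were members, but only 4.07% of intronic, 5.12% of intergenic, 3.54% of exonic and 7.17% of gene-end KO-only peaks. Counted on the shDdx5 peak, 576 of 838 lay at a promoter (68.7%), against 32.7% of the other shDdx5-only peaks, a difference of 36.0 points (32.6 to 39.2).

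Strength moved with membership, so the shares were also taken within 4 bins of nearly equal size of all KO-only peaks by −log10 p. The bins held 117, 111, 203 and 407 members from the weakest to the strongest. Promoter shares of members were 62.4, 64.0, 63.1 and 75.2%, and those of the other KO-only peaks 16.8, 17.9, 24.5 and 39.0%. In each of the 4 bins the members stood higher, by 45.5, 46.1, 38.6 and 36.1 points, and the lowest bound of the 4 intervals was 31.1 points. Among the members themselves, the promoter share was 77.8% (73.3 to 81.7%) of those with a q of 0.05 or lower in both lists, 66.5% (61.5 to 71.1%) of those that passed in 1, and 46.1% (36.7 to 55.7%) of those that passed in neither.

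**Figure D2:**
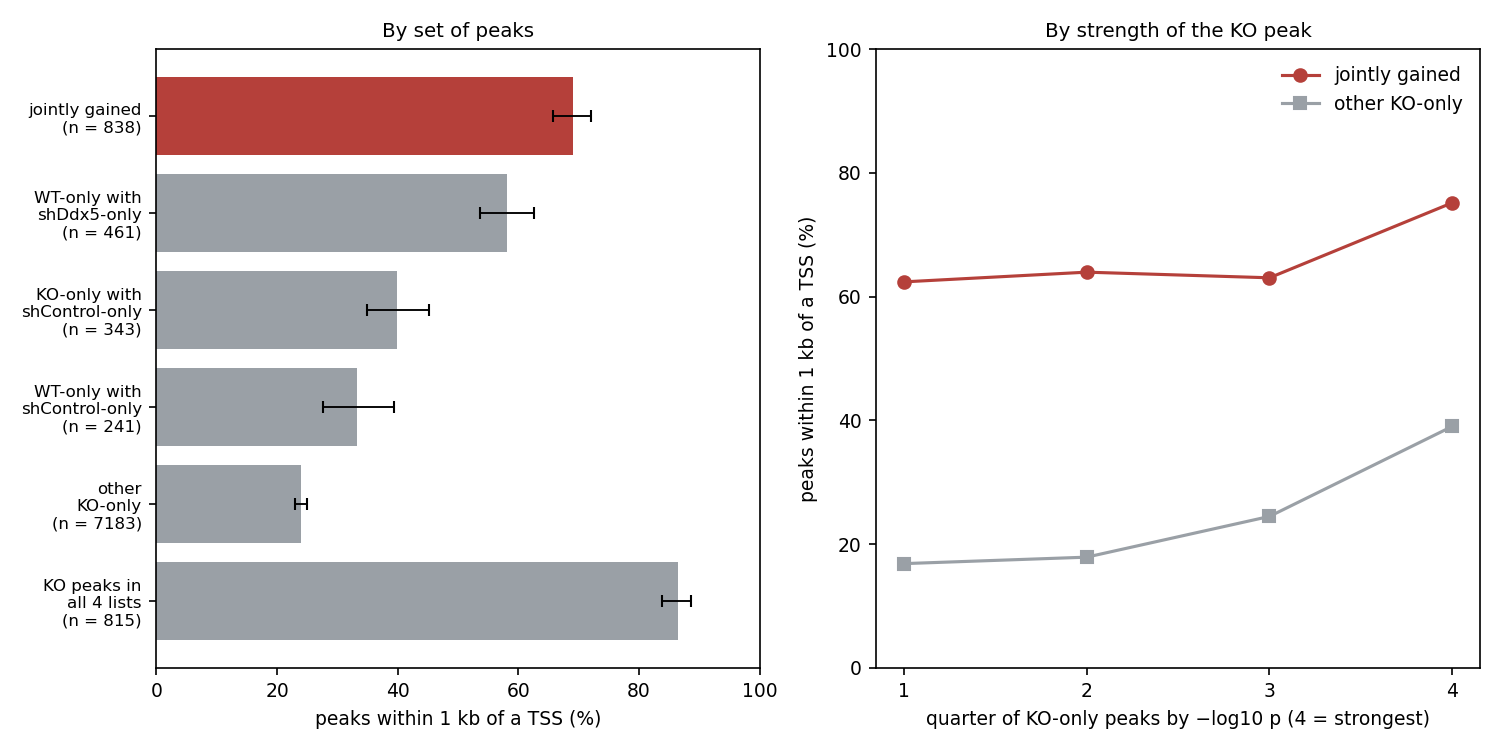
Left, percent of peaks within 1 kb of a TSS in the jointly gained sites and the sets compared with them, with 95% Wilson intervals as error bars. The jointly gained sites (69.0%) lie between the peaks of WT-only with shDdx5-only (58.1%) and the KO peaks that all 4 MEF S9.6 lists hold (86.4%). Right, the same percent within 4 bins of KO-only peaks by −log10 p, where the jointly gained sites lie above the other KO-only peaks in each bin.

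The same lean toward promoters was present in the crossed set. Of the 461 WT-only peaks that overlapped a shDdx5-only peak, 268 were at a promoter (58.1%, 53.6 to 62.6%), which is 10.8 points (5.38 to 16.3) below the members. That difference was smaller among stronger peaks. Here all lists were cut by strength and both sets were formed again, so peaks outside the 838 could enter. With a q of 0.05 or lower the shares were 78.5% of 601 jointly gained and 74.4% of 270 crossed peaks, a difference of 4.09 points (-1.85 to 10.4). With a fold of at least 4 they were 82.1% of 329 and 82.2% of 146, a difference of -0.125 points (-7.13 to 7.83). For the crossed sets with shControl-only peaks, the promoter share was 39.9% of 343 KO-only peaks and 33.2% of 241 WT-only peaks. In the 815 KO peaks that also overlapped a WT, a shDdx5 and a shControl peak it was 86.4%, and the difference of members minus these peaks was -17.4 points (-21.3 to -13.5).

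At promoters the summits centred on the TSS. Of the 533 members within 1 kb of a protein-coding TSS, 397 (74.5%, 70.6 to 78.0%) had their KO summit within 250 bp of it, against 61.4% of 1315 other KO-only promoter peaks, a difference of 13.1 points (8.46 to 17.5). The other sets lay nearer. The crossed WT-only peaks had 69.8%, a difference of 4.73 points (-1.90 to 11.7), the KO-only peaks with a shControl-only peak 69.5% (4.99 points, -3.52 to 14.5) and the peaks of all 4 lists 72.3% (interval of the difference -2.85 to 7.17 points). The median summit lay 7 bp upstream of the TSS, with quartiles at 135 bp upstream and 154 bp downstream. Summits fell on the transcribed side in 48.4% of members and in 49.0% of the other KO-only peaks. Peaks held by all 4 lists lay further upstream, at a median of 72 bp, and 36.4% of them were on the transcribed side, a share below that of members with an interval of the difference from 6.43 to 17.6 points.

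**Figure D3:**
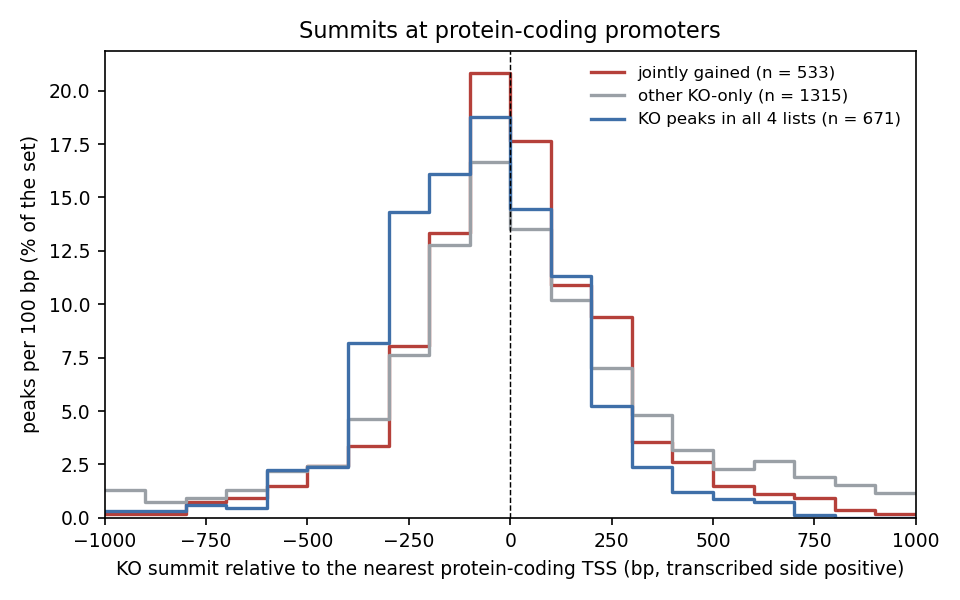
Share of each set's peaks per 100 bp around the nearest protein-coding TSS, by the position of the KO summit, with the transcribed side positive. The jointly gained sites (red, n = 533) are highest in the 100 bp upstream of the TSS (20.8%) and the 100 bp downstream (17.6%), and the peaks of all 4 lists (blue, n = 671) reach further upstream.

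Protein-coding starts on both strands lay within 1 kb of 65 of the 533 members (12.2%, 9.68 to 15.2%), as at Armc10 and Fbxl13. That share was 11.0% in the other KO-only promoter peaks, a difference of 1.24 points whose interval (-1.85 to 4.68) includes 0. It was 20.6% in the peaks of all 4 lists, a difference of -8.37 points (-12.5 to -4.17) for members minus those peaks. Read by annotation, the KO summits of the 578 promoter members lay outside annotated transcripts in 177, in an untranslated region in 169, in a coding exon in 38, in an intron in 173 and in an exon of a non-coding transcript in 21.

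Members were rich in G and C. In a window of 200 bp on either side of the KO summit the median GC content was 60.2% (quartiles 52.6 and 65.8%) in members and 49.6% (45.1 and 54.6%) in the other KO-only peaks, a difference of 10.6 points. Much of it went with position. Among promoter peaks the medians were 63.3 and 58.6%, and among peaks over 1 kb from a TSS 50.4 and 47.9%. The crossed WT-only peaks had medians of 62.7 and 50.6% in these positions. A window was called CpG-rich when its GC content was at least 50% and its observed CpG count at least 0.6 of that expected from its C and G. By that measure 431 of 578 promoter members were CpG-rich (74.6%, 70.9 to 77.9%), against 49.3% of the other KO-only promoter peaks, a difference of 25.3 points (20.9 to 29.4). In the crossed WT-only promoter peaks it was 68.3%, 6.28 points lower, with an interval that begins at -0.166 and so includes 0. Away from promoters 7 of 260 members were CpG-rich (2.69%), against 0.989% of the other KO-only peaks of that position, a difference of 1.70 points (0.289 to 4.47). The crossed WT-only peaks had 4.66% there, and members minus these was -1.97 points (-6.17 to 1.55). KO-only peaks with a shControl-only peak had 3.40% (-0.706 points, -4.42 to 2.56) and WT-only peaks with one 1.86% (0.829 points, -2.91 to 3.85). The peaks of all 4 lists had 19.8%, and members minus these was -17.1 points (-25.6 to -10.2).

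**Figure D4:**
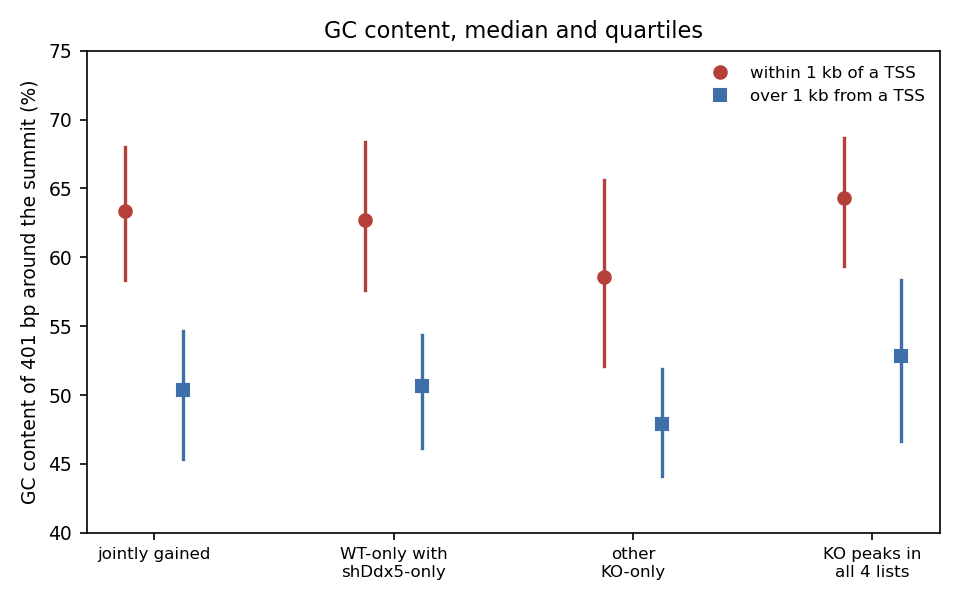
Median (points) and quartiles (lines) of the GC content of the window of 200 bp on either side of the summit, for peaks within 1 kb of a TSS (red) and further away (blue). Jointly gained promoter sites have a median of 63.3% and the other KO-only promoter peaks 58.6%, while the medians away from promoters are 50.4 and 47.9%.

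Features of R-loop-forming sequence were read in the same windows. A G-quadruplex pattern, here 4 runs of at least 3 G with gaps of 1 to 7 bases on either strand, was present in 180 of 578 promoter members (31.1%, 27.5 to 35.0%) and in 24.8% of the other KO-only promoter peaks, a difference of 6.32 points (2.12 to 10.7). The crossed WT-only promoter peaks had it in 34.7%, and the difference of members minus these was -3.56 points (-10.5 to 3.13). GC skew, the excess of G over C on the coding strand in the 500 bp after the TSS divided by their sum, had a median of 0.0632 (quartiles -0.00532 and 0.139) at member promoters and 0.0618 at the other KO-only promoters. Those medians lie well inside the quartiles of either set.

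Short motifs were counted on both strands in 300-base RefSeq promoter windows (GRCm38.p6, 250 bases before to 50 after the start), which were found for 488 of the 602 genes with a member. No motif searched contains another. GGGCGG, which Sp1-like factors bind, was present in 75.6% of member promoters and in 69.1% of 1166 promoters with another KO-only peak. Counted per gene as well, it was present in 48.0% of all 16522 protein-coding genes with a window. The difference from the other KO-only promoters was 6.49 points (1.73 to 11.0). From the crossed WT-only promoters, with 71.6%, it was 4.05 points (-2.88 to 11.4), and from the promoters of all 4 lists, with 77.9%, it was -2.25 points (-7.26 to 2.66). CCAAT, the letters of the NF-Y box, was present in 43.9% of member promoters, in 42.1% of the other KO-only promoters and in 38.7% of all genes. CCGGAAG, an ETS-type motif, stood at 20.7% and 20.3% (12.3% of all genes) and CACGTG at 12.7% and 9.78% (8.11%). TGACGTCA stood at 4.71% and 3.26% (2.43%), GCATGCGC at 7.17% and 5.49% (3.76%) and TATAAA at 3.69% and 5.66% (12.9%). For these 6 the interval of the difference from the other KO-only promoters includes 0, and so does that from the crossed WT-only promoters. Against the promoters of all 4 lists, members stood lower for CCAAT (-7.75 points, -13.5 to -1.89). They stood higher for CCGGAAG (5.58 points, 1.11 to 10.2) and CACGTG (5.07 points, 1.56 to 8.78). For TGACGTCA, GCATGCGC and TATAAA that interval includes 0. A match is a run of letters in a window and was not read as binding.

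Away from promoters, 260 members remained. Of these, 127 lay in introns, 100 in intergenic DNA, 20 within 3 kb after a gene end and 13 in exons. The nearest TSS was a median of 8685 bp away, and 118 members were over 10 kb and 4 over 100 kb from one. In 32 of the 260 (12.3%, 8.85 to 16.9%) at least 50% of the window was repeat-masked sequence, against 11.0% of the other KO-only peaks of that position. The strongest intronic sites were in Gm5546 (chr3:104360413-104360642), with folds of 4.58 in KO and 4.94 in shDdx5, and in Cuedc1 (chr11:88180596-88181551), with 4.94 and 4.20. After a gene end the strongest were beside Gm47301, with 4.94 and 4.04, and beside Errfi1, an inhibitor of the EGF receptor, with 4.49 and 3.45. Among peaks with their midpoint in an exon they were at Zfp13, with 4.04 and 4.34, and at Zbtb7b, a zinc finger transcription factor, with 3.47 and 4.43. Besides the site on chromosome 8, the highest intergenic member lay on chromosome 16 (chr16:31598151-31598840), with 4.58 and 4.76.

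A member lay within 1 kb of a TSS of 602 protein-coding genes, which is 2.75% of 21911. The rule bars an overlapping WT peak and, for the partner, an overlapping shControl peak, yet 24 of the genes had a WT peak and 47 a shControl peak elsewhere within 1 kb of a TSS, and 539 had neither. Among fibroblast markers, Vim, Pdgfra and Fn1 carried a promoter peak in at least 1 of the 4 MEF S9.6 lists. No member lay at any of the 10 fibroblast markers or at the 13 markers of epithelial, blood and endothelial cells, of which Cd34 alone had a peak, in shControl. Chd9, a chromatin remodeller, and Frs3, an adaptor of FGF receptor signalling, had 2 members each.

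Cell-cycle genes held members at 5 of 60 cyclins, CDKs and their inhibitors (8.33%, 3.61 to 18.1%). Cdk4, the kinase that drives cells through G1, had a KO peak at chr10:127063311-127063609 with a fold of 3.75 and a −log10 q of 2.40, and a shDdx5 fold of 3.73 with 2.94. At Cdk4 the pileups were 16 in KO and 17 in shDdx5, and the summits lay 12 bp apart, upstream of the TSS. Ccne1, the G1/S cyclin E1, had folds of 4.55 in KO and 4.78 in shDdx5. Cdk19, a Mediator-associated kinase, had 4.03 and 3.59, and Cdk17 had 3.47 and 4.33. At none of these genes was a WT or shControl peak called within 1 kb of a TSS. DNA replication genes held members at 3 of 61: Orc4 of the origin recognition complex (folds 5.20 and 4.49), Top2b, a type II topoisomerase (4.36 and 5.76), and Rfc4 of the clamp loader (4.81 and 3.90). In homologous recombination and Fanconi genes, 1 of 47 held a member, Fanci, with 3.71 and 5.08.

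RNA-handling genes were counted next. Splicing factors and hnRNPs had 5 of 88 (5.68%, 2.45 to 12.6%), led by Snrnp70, the U1 snRNP protein, with folds of 4.30 in KO and 4.71 in shDdx5. Hnrnpr followed with 4.04 and 4.39, then Tra2b, at which the shDdx5 fold was 3.85, and Hnrnpdl with 3.54 and 3.92. R-loop factors had 2 of 53. Mettl3, the RNA m6A methyltransferase, had folds of 4.77 and 4.18, and Leo1 of the PAF1 complex had 3.37 and 5.27. DEAD and DEAH box helicases had 2 of 53, Ddx10 with 3.67 and 3.42 and Dhx57 with 4.04 and 3.37. Translation initiation factors had 3 of 55, Eif1ax with 4.77 and 3.69, Eif2a with 3.79 and 4.11 and Eif4e, the cap-binding protein, with 3.31 and 5.69.

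Protein synthesis, energy and turnover genes were also counted. Cytosolic ribosomal proteins had 3 of 80 (Rpl38, Rps14 and Rpl11, KO folds 3.78, 3.35 and 3.91) and mitochondrial ribosomal proteins 2 of 78 (Mrpl47 and Mrpl32, KO folds 4.70 and 3.90). Respiratory chain genes had 4 of 82 (Atp5g1, Cox8a, Ndufv2 and Ndufb5). The sites of Mrpl47 and Ndufb5 are 1 peak at a shared promoter, and so are those of Mrpl32 and the proteasome gene Psma2. Proteasome subunits had 3 of 45 (6.67%, 2.29 to 17.9%), with Psma4 the highest at folds of 4.56 and 4.76 and Psma5 at 3.75 and 4.37. F-box proteins and ubiquitin-specific proteases had 3 of 127, Fbxl13 opposite Armc10, Fbxo45 and Fbxo38. Fibroblast matrix genes had 3 of 58, Sparc with 3.43 and 3.46, Lamb2 with 3.05 and 3.92 and the collagen chaperone Serpinh1 with 2.80 and 4.82.

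Zinc finger proteins named Zfp held 15 of 391 (3.84%, 2.34 to 6.23%), with Zfp948, Zfp397, Zfp277 and Zfp691 the highest at KO folds of 5.51, 4.77, 4.16 and 3.98. Of the 3 lists without a member, heat-shock proteins and DNAJ chaperones had 0 of 73, where a floor of 3 counts allows a share of up to 4.11%, although 20 of them had a promoter peak in the KO list, 26 in WT, 19 in shControl and 27 in shDdx5. Clustered histones had 0 of 67 (up to 4.48% by the same floor) and Hox genes 0 of 39 (up to 7.69%), and of these 1 and 3 had a KO promoter peak. Beside the 2.75% of all protein-coding genes, every list with a member other than Fanconi and recombination genes, F-box and protease genes and mitochondrial ribosomal proteins lay above it, but the lower bound of the interval passed it only for cyclins and CDKs. All 21911 genes include those with no S9.6 peak anywhere, so that share is a low base for lists of widely expressed genes. Of the 60 cyclins, CDKs and inhibitors, 24 had a KO promoter peak, and 5 of these held a member. Of all 21911 genes, 3308 had a KO promoter peak, and 602 of these held a member. The lists were not tested on that base.

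Human genes of the same symbol gave a readout in other cells. Of the 602 genes, 553 (91.9%) had a human protein-coding gene of that symbol. A HEK293 S9.6 peak lay within 1 kb of a TSS of 295 of them (53.3%, 49.2 to 57.5%), and of 30.5% of all 15737 matched genes. For genes with another KO-only promoter peak the share was 49.1%, a difference of 4.23 points (-0.744 to 9.16), and for the crossed WT-only genes 56.0%, a difference of -2.70 points (-10.0 to 4.76). With the RNH1 plasmid the S9.6 share was 42.1% for member genes and 39.5% for the other KO-only genes. IgG peaks were found at 4.70% of member genes and 5.46% of the others.

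FLAG-MCM8 peaks were found at 96 of the 553 genes (17.4%, 14.4 to 20.7%). The share was 14.6% for genes with another KO-only promoter peak, a difference of 2.76 points (-0.804 to 6.59), 18.1% for the crossed WT-only genes, a difference of -0.785 points (-6.81 to 4.68), and 10.9% for all matched genes. For genes whose promoter peak was held by all 4 MEF lists it was 31.0%, a difference of -13.6 points (-18.1 to -8.93). Both a FLAG-MCM8 and an S9.6 peak lay at 72 of the 553 member genes (95% interval 10.5 to 16.1%). Of these 72, 61 had no IgG peak, a count made for member genes only and not compared with the other sets. The share with both peaks, whether or not IgG had one, was 10.5% for genes with another KO-only promoter peak. The difference was 2.49 points (-0.625 to 5.92). For the crossed WT-only genes that share was 16.1%, a difference of -3.11 points (-8.80 to 1.97). It was 27.5% for the genes of all 4 lists, a difference of -14.4 points (-18.6 to -10.1), and 6.96% for all matched genes. Zdhhc5, Reep6, Frs3, Cdk4, Cdk19, Chd9 and Hnrnpr were among the 61 without an IgG peak. All of these named genes but Reep6 also had an S9.6 peak in the library with the RNH1 plasmid. HEK293 peaks were called at p of 1e-05 or lower and MEF peaks at p of 0.001 or lower, so the shares compare gene sets within a list and not the 2 cell types.

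**Figure D5:**
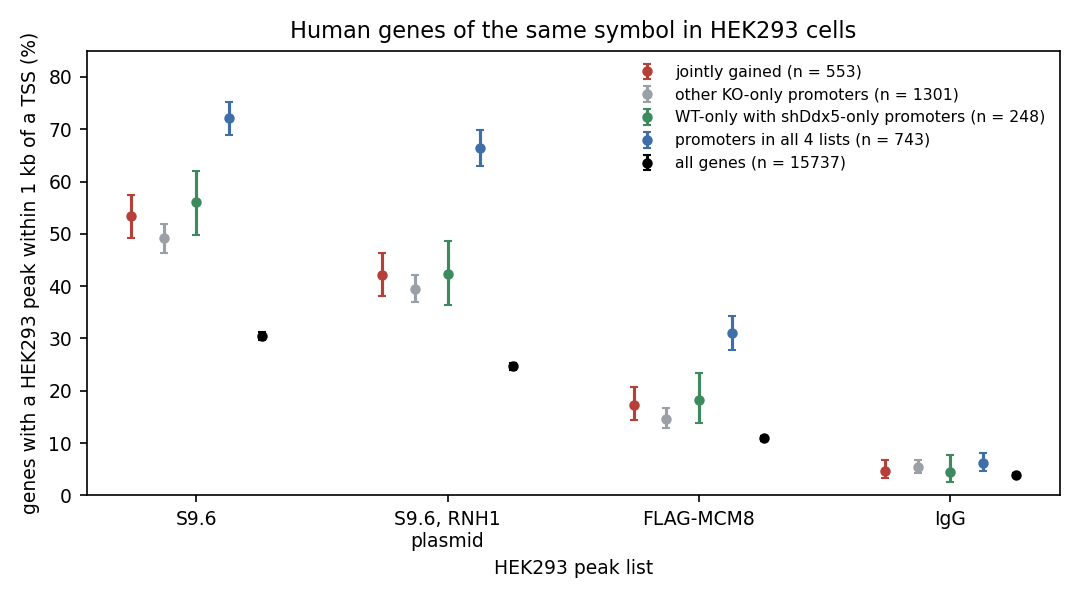
Percent of human genes of the same symbol with a HEK293 peak within 1 kb of a TSS, for each of 4 HEK293 lists, with 95% Wilson intervals. Genes with a jointly gained promoter site (red, n = 553) have 53.3% in S9.6 and 17.4% in FLAG-MCM8, next to genes with another KO-only promoter peak (grey) and below genes whose promoter peak all 4 MEF lists hold (blue, n = 743).

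Peaks of the library without primary antibody lay on 9 of the 838 members (1.07%, 0.566 to 2.03%) and on 0.557% of the other KO-only peaks, a difference of 0.517 points (-0.029 to 1.48). They lay on 5.52% of the KO peaks of all 4 lists. The no-antibody library was shallow, with a recovered depth of 719.8 fragments per Mb against 5729 in KO, so background at the members was hardly measurable at this depth. In 16 members the KO peak overlapped a shControl peak and in 13 the shDdx5 peak overlapped a WT peak, and without these 29 sites 809 members remained.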

How the data were processed

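S9.6, FLAG-MCM8, IgG and no-antibody CUT&Tag peak lists of 9 libraries were used, 1 library a group, grouped by their labels. Per the study's methods and the submitters' processing notes, the authors trimmed reads (Trimmomatic), aligned them with bowtie2 2.2.4 to mm10 or hg38 and called peaks with MACS2, given as 2.2.7.1 in the methods and 2.1.2 in the notes; the MEF no-antibody library was not an input control. The cut-off of the peak calling is not given in the sources used here, and the methods name a later filter on fold and p. The deposited values per peak were a fold enrichment (a ratio over the local background) and the −log10 of a Poisson p and of its q. These depend on depth and were not compared between libraries.

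Peaks on the 21 assembled mouse chromosomes were kept. Peaks overlapped when they shared at least 1 bp. Shares carry Wilson and differences Newcombe 95% intervals. The pileup was solved from fold and p (at least 99.9% of the peaks of each list), and relative depth is the lowest background divided by the shortest peak. The steps were tested on simulated data. TSSs came from GENCODE M21 and 44, sequence from the mm10 chromosomes of RefSeq, and repeats from its masking. Python 3.11.15, numpy 2.4.6, pandas 2.3.3, scipy 1.17.1, matplotlib 3.10.9, pysam and samtools were used.

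The members, the gene lists and the rule for named genes were chosen with earlier results of these data known. Named genes were the 15 members with the highest lower −log10 q, up to 4 per gene list, Cdk4, Armc10, Paip2b and Prkcsh, the 2 strongest of each position away from TSSs, the 2 nearest the overlap limit on each side, and genes with 2 members. Alternatives changed strength, list size, overlap, exclusion, merging, background, promoter window and annotation.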

Additional observations from a re-analysis of the deposited data

How the results depend on the processing

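No paired analysis was possible because each group held 1 library, and no library could be left out. The promoter share of the members stayed above that of the other KO-only peaks under every alternative run. For the cuts by q, by fold and by list size, all lists were cut first and the rule was applied again, so peaks outside the 838 could enter. With a q of 0.05 or lower this gave 601 sites, 23.2% of KO-only peaks and 78.5% at promoters. Their promoter share was 38.6 points above the other KO-only peaks and 4.09 above the crossed WT-only set. The GC difference was 9.73 points, taken instead on the 369 of the 838 members with that q in both lists. These were set against the other KO-only peaks with that q. With a fold of at least 4 there were 329 sites, 18.1% of KO-only peaks and 82.1% at promoters. Their promoter share was 38.9 points above the other KO-only peaks and -0.125 from the crossed set, where the sign reversed. Equal numbers of strongest peaks gave 551 sites, 75.9% at promoters. Asking for 50% of both peaks gave 8.52% of KO-only peaks and 74.5% at promoters. Counting peaks within 1 kb as overlapping gave 11.8%, 63.9% and a difference of 40.5 points from the other KO-only peaks. Excluding peaks with a partner peak within 1 kb gave 9.66% of KO-only peaks. Where neither peak overlapped WT or shControl, the share was 11.2% and the difference 49.2 points. A promoter window of 500 bp gave 63.0%, one of 3 kb 74.3% with a difference of 38.4 points, and protein-coding TSSs only 63.6%. Merging, leaving out no-antibody peaks and all sequences moved these 5 results by less than their intervals, as did the alternatives of the FLAG-MCM8 and no-antibody shares. The causes were not tested. Depth limits each call, since members rest on a median of 10 fragments in KO.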

Other observations

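Of the 2045 protein-coding genes with a KO-only peak within 1 kb of a TSS, 602 held a member. Another 117 had a shDdx5-only peak at a TSS as well, but the KO-only and the shDdx5-only peak shared no base, so these genes missed the rule by position within the promoter. At 457 further genes the promoter held a shDdx5 peak that overlapped a shControl peak.

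By chromosome, leaving out Y with 0 members among 2 KO-only peaks, the share of KO-only peaks that were members ran from 6.53% of 291 on chromosome 13 (4.22 to 9.97%) to 13.8% of 478 on chromosome 9 (11.0 to 17.2%), and was 14.9% of 47 on X (7.41 to 27.7%). Members rarely lay side by side. No 2 members were within 1 kb of each other and 7 neighbouring pairs were within 10 kb, the closest between the sites at Sh3glb2 and Miga2 on chromosome 2, which lie 4678 bp apart. These 2 genes were named after their values were seen.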
